A study of Oryctolagus cuniculus with 6 samples.

Results

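The miR-29 microRNAs were described here in hypertrophic scars of the rabbit ear, with and without exosome treatment. All rows of the deposited table named miR-29a, miR-29b or miR-29c were taken, on either arm of the hairpin, which gave 7 of 467 miRNAs. They were 3 abundant 3p arms (ocu-miR-29a-3p, ocu-miR-29b-3p and ocu-miR-29c-3p in the table, written here without the rabbit prefix) and 4 scarce 5p arms (ocu-miR-29b-2-5p, miR-29a-5p, miR-29b-5p and miR-29c-5p). Scars came from full-thickness wounds on the ventral ear of female New Zealand White rabbits and were sampled on day 21. The saline group had 3 libraries from wounds given saline, and the ADSC-Exos group had 3 libraries from wounds given a dose of 100 µg exosomes of adipose-derived stem cells in 2 ml. Exosomes are small vesicles that cells release. By the design text, wounds were treated over the first 3 days, while the sample labels speak of 21 days of treatment. It assigns 3 rabbits to each group and 6 wounds to each ear, without saying which rabbit gave which library, so the p-values may measure only the spread between samples. The sources used here do not give the species or donor of the stem cells.

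MicroRNAs are short RNAs that pair through their seed, a short stretch near the 5′ end, with sites in messenger RNAs and lower the output of those messages. The 3p arms of miR-29a, miR-29b and miR-29c share a seed, and in human and mouse cells they repress a set of matrix genes that includes type I and type III collagen, elastin and fibrillin. In human and mouse fibroblasts TGF-beta, the main driver of scar collagen, lowers miR-29. The family is encoded by paired hairpin genes. In the RefSeq annotation of rabbit assembly mOryCun1.1, MIR29A has MIR29B-1 as its direct neighbour and MIR29C has MIR29B-2, so that miR-29b-3p can come from either pair. The 3p arm, which carries the shared seed, is the strand that is mostly kept, and the 5p arm is mostly discarded.

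The unit of all levels is CPM, in which reads are scaled so that every library has the same total. Read totals per library, placed from the spacing of low values, ran from 2260645 to 5102405. One read was therefore worth 0.196 to 0.442 CPM. The test covered 224 miRNAs whose mean reached 10 CPM. Between the groups, limma called 0 of them at an adjusted threshold of 0.05 and 8 at an unadjusted p under 0.05, and limma-voom on the reads placed from those low values gave the same counts of 0 and 8. The count of 8 became 28 without ADSC-Exos 1, 3 without ADSC-Exos 2, 2 without ADSC-Exos 3 and 4 without saline 2. ADSC-Exos 1 stood apart from the other treated libraries, at -6.26 on the first principal component against 5.15 and 9.78, with saline at -3.67 to -2.03. Fold changes and ratios of the tested members are given with and without it.

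The 3p arms were among the most abundant miRNAs of the scar, and their mean levels were higher in ADSC-Exos than in saline, but none passed the test and the groups overlapped for each. Their summed level was 22306, 27090.4 and 33857 CPM in saline 1, 2 and 3 and 26568, 56631 and 35847 CPM in ADSC-Exos 1, 2 and 3. The family thus took 2.23% to 3.39% of the saline libraries and 2.66%, 5.66% and 3.58% of the treated ones. ADSC-Exos 2 was the highest library, and ADSC-Exos 1 lay inside the saline range. The sum averaged 27751 ± 5804 CPM over the saline and 39682 ± 15394 CPM over the treated libraries (SD, n = 3 per group), a ratio of 1.43. In bulk tissue, a change in the level of a miRNA per cell and a change in the number of cells that hold it cannot be told apart.

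**Figure D1:**
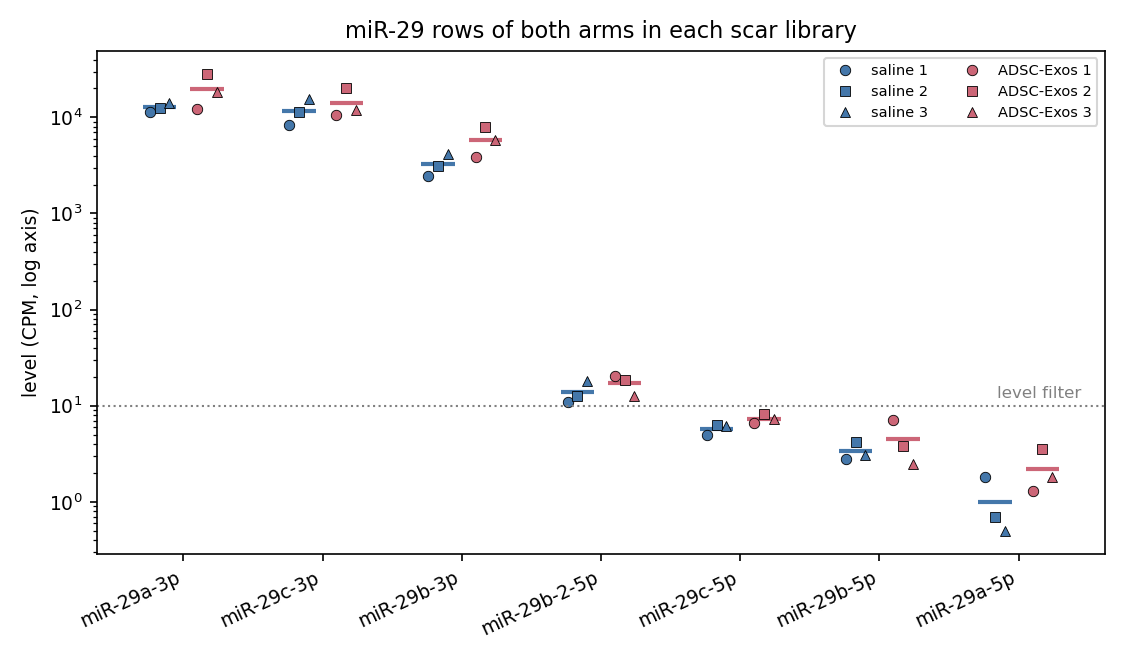
Level of each of the 7 miR-29 rows in CPM, on a log axis, with saline libraries in blue, ADSC-Exos libraries in red, and short lines for group means. The 3p arms lie between 2453.9 and 28550.0 CPM, far above the 5p arms, and the groups overlap in every row except miR-29c-5p.

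miR-29a-3p, encoded beside miR-29b-1, was the most abundant member, 15th of 467 by mean level. Its levels were 11431, 12627.4 and 14123.7 CPM in saline 1, 2 and 3, and those in ADSC-Exos 1, 2 and 3 were 12196.5, 28550.0 and 18199.5 CPM. The saline libraries lay close together, and only ADSC-Exos 2 and 3 exceeded them. The group means were 12727 ± 1349 and 19649 ± 8272.5 CPM (SD, n = 3 per group). In limma the log2 fold change came to 0.55 ± 0.33 (SE), its 95% interval spanned -0.19 to 1.28, and the adjusted p was 0.996. The exact two-sided permutation test over 20 arrangements gave 0.3. With 3 libraries in each group this exact test cannot go below 0.1.

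miR-29b-3p, which either gene pair can supply, had the largest fold change of the 4 tested members. The saline libraries held 2453.9, 3141.4 and 4149.1 CPM, and the treated ones 3845.4, 7915.4 and 5817.3 CPM. The overlap came from saline 3, which exceeded ADSC-Exos 1. The saline mean was 3248 ± 853 CPM and the treated mean 5859 ± 2035 CPM (SD, 3 libraries each). The log2 fold change of 0.82 ± 0.34 (SE, 95% interval 0.05 to 1.60) took place 2 of 224 from the top. limma gave it an unadjusted p of 0.0397, which became 0.996 when adjusted. The exact permutation p was 0.2.

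miR-29c-3p, encoded beside miR-29b-2, had saline levels of 8420.9, 11321.6 and 15583.9 CPM, against treated levels of 10525.8, 20166.0 and 11829.9 CPM. Saline 3 was above ADSC-Exos 1 and 3, and only ADSC-Exos 2 lay outside the saline range. The group means were thus 11775.5 ± 3603 and 14174 ± 5230.1 CPM (SD, 3 libraries each). This is a log2 fold change of 0.25 ± 0.34 (SE, 95% interval -0.51 to 1.02, adjusted p = 0.996 by limma, exact permutation p = 0.6). Its sign rested on ADSC-Exos 2, without which it was -0.032, and under quantile scaling it was -0.18.

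miR-29b-2-5p, the discarded arm of the hairpin next to miR-29c, was the only 5p arm above the level filter. Saline libraries held 10.8, 12.5 and 18.1 CPM of it and treated libraries 20.3, 18.6 and 12.5 CPM, which are 35 to 71 reads per library. ADSC-Exos 1 was here the highest library, whereas for miR-29b-3p it was the lowest treated one. Counting error alone spanned 7.51 to 15.0 CPM in saline 1 and 14.9 to 27.1 CPM in ADSC-Exos 1 (exact 95% Poisson intervals). Its fold change on the log2 scale was 0.30 ± 0.40 (SE, adjusted p = 0.996 by limma, exact permutation p = 0.3).

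Of the 4 tested members, 4 had a log2 fold change above 0, against 39.3% of the 224 miRNAs tested, whose median was -0.08. The members share gene pairs and similar mature sequences, so these are not 4 independent values. At an unadjusted p under 0.05 there was 1 of 4, miR-29b-3p, against 3.57% of all tested, or 0.893% counting higher levels alone, a background that moved with the library left out as given above. At an adjusted p of 0.05 there were 0, as over all tested (0%). By fold change miR-29a-3p was 11th from the top, miR-29b-2-5p 26th and miR-29c-3p 32nd. The groups did not overlap for 0 of the 4, against 4.91% of all tested.

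**Figure D2:**
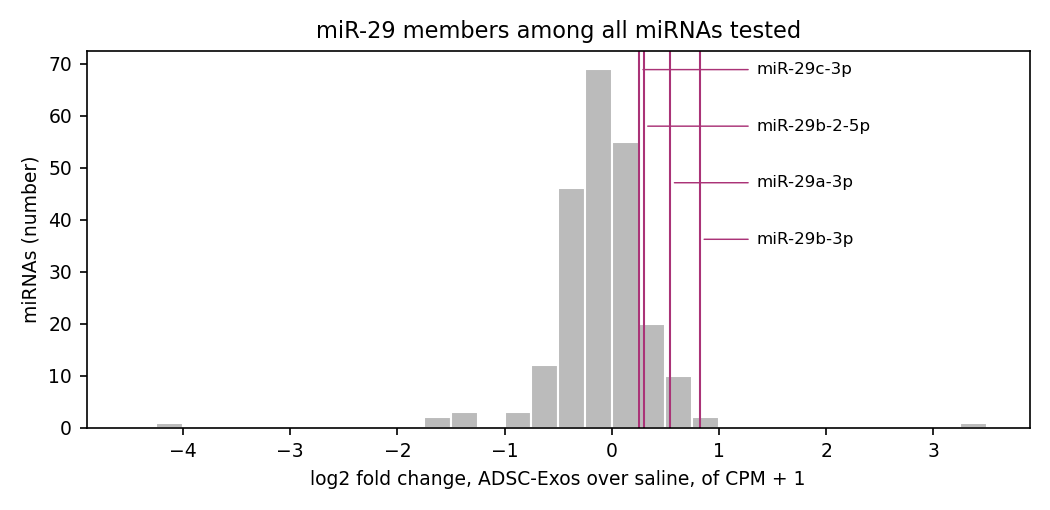
Number of miRNAs by log2 fold change of CPM + 1, ADSC-Exos over saline, for the 224 miRNAs tested, with the 4 tested miR-29 members as lines. All 4 lie right of the median of -0.08, between 0.25 and 0.82.

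Leaving out ADSC-Exos 1 raised the fold change of miR-29a-3p to 0.85 (adjusted p = 0.218 in limma) and that of miR-29b-3p to 1.10 (adjusted p = 0.139 in limma). Without ADSC-Exos 2 they were 0.23 and 0.58. miR-29c-3p ranged from -0.032 to 0.48 over the 6 leave-outs, and miR-29b-2-5p from 0.15 to 0.50. The lowest value of miR-29b-2-5p came without saline 1, and the highest of miR-29c-3p without saline 3. Without ADSC-Exos 1, miR-29c-3p was at 0.44 and miR-29b-2-5p at 0.17, and without saline 1 miR-29c-3p was at 0.03. The fold change of miR-29b-3p ran from 0.58 to 1.10, and no member passed in any leave-out.

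**Figure D3:**
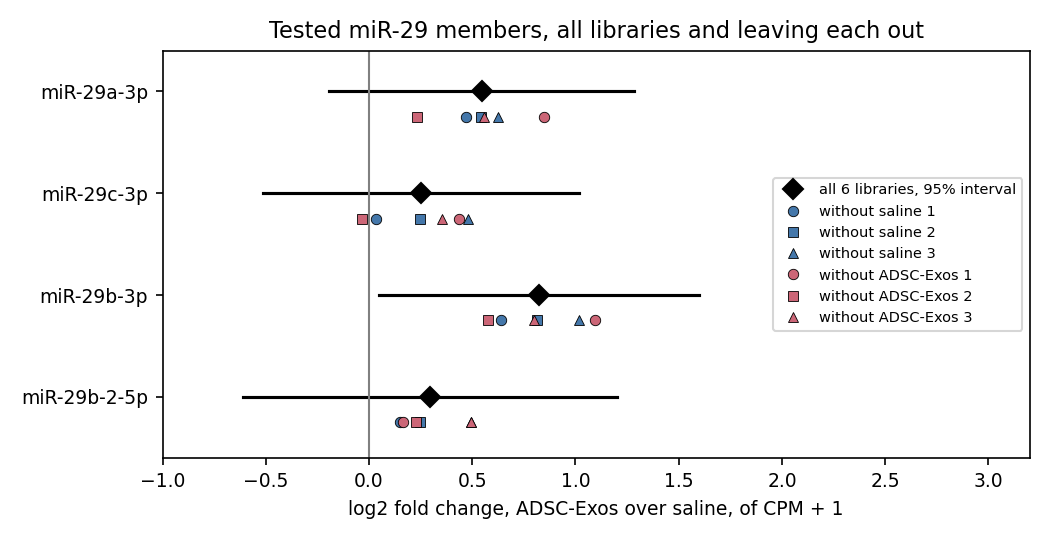
Log2 fold changes of the 4 tested members with all 6 libraries (black diamonds, bars for 95% intervals) and with each library left out (coloured symbols). The interval of miR-29b-3p alone lies above 0, and miR-29c-3p falls to -0.032 without ADSC-Exos 2.

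The mix of the 3p arms also differed between libraries. miR-29b-3p made up 11.0%, 11.6% and 12.3% of the summed 3p arms in saline 1, 2 and 3 and 14.5%, 14.0% and 16.2% in ADSC-Exos 1, 2 and 3. The share was lowest in saline 1 and highest in ADSC-Exos 3, and it was not tested on its own. It follows from the ratios of miR-29b-3p to the other 3p arms, which are given below, so it is not a separate result. miR-29c-3p made up 37.8% to 46.0% in saline and 33.0% to 39.6% in ADSC-Exos. miR-29a-3p made up 41.7% to 51.2% and 45.9% to 50.8%, and both these arms overlapped between groups. How the authors assigned reads that fit several of these similar arms is not stated in the sources used, so the separate levels are uncertain to that extent.

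**Figure D4:**
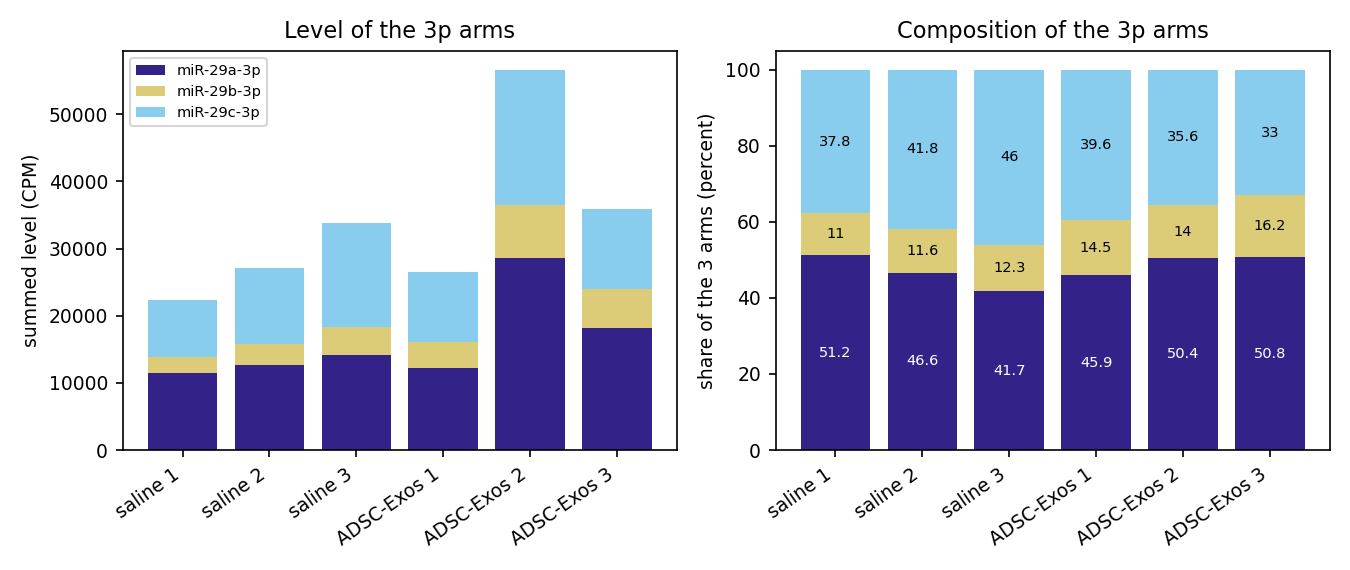
Left, summed level of the 3p arms in CPM per library, split by member. Right, the share of each member in that sum, in percent, where miR-29b-3p holds 11.0% to 12.3% in saline and 14.0% to 16.2% in ADSC-Exos.

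Ratios between members within a library do not change when a library is scaled by a single factor, and were tested as log2 ratios of CPM + 1. The ratio of miR-29b-3p to miR-29c-3p was 0.291, 0.277 and 0.266 in saline and 0.365, 0.393 and 0.492 in ADSC-Exos. Every treated library was above every saline library. The difference in mean log2 ratio was 0.57, from -1.85 ± 0.07 in saline to -1.28 ± 0.22 in ADSC-Exos (SD). Its exact permutation p was 0.1, the smallest possible with n = 3 in each group, and 0.4 after Benjamini-Hochberg adjustment over the 6 ratios compared. Leaving out a library gave 0.44 to 0.66, the highest without ADSC-Exos 1. Quantile scaling, which shifts values by rank, widened it to 1.09, and took miR-29c-3p to miR-29a-3p to -0.72 and miR-29b-3p to miR-21-5p to 0.49. Of the log2 ratios of all 24976 pairs of tested miRNAs, 6.68% had groups without overlap, and of the 6 ratios here this was the only such one.

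The other ratios overlapped between groups. miR-29b-3p to miR-29a-3p was 0.215, 0.249 and 0.294 in saline and 0.315, 0.277 and 0.320 in ADSC-Exos, a log2 difference of 0.28 (exact permutation p = 0.2, adjusted 0.4). Leaving out saline 1 took this to 0.17, and leaving out ADSC-Exos 1 to 0.25. miR-29c-3p to miR-29a-3p was 0.737, 0.897 and 1.10 in saline and 0.863, 0.706 and 0.650 in ADSC-Exos, a log2 difference of -0.29 (exact permutation p = 0.2, adjusted 0.4). Leaving out saline 3 took this to -0.15, and leaving out saline 1 or ADSC-Exos 1 to -0.44 or -0.41. The saline libraries spread over most of the range of both ratios. miR-29b-2-5p to miR-29b-3p had a log2 difference of -0.53 (exact permutation p = 0.4, adjusted 0.6), which was -0.93 without ADSC-Exos 1, -0.35 without ADSC-Exos 2 and -0.30 without ADSC-Exos 3. Its reverse, the excess of miR-29b-3p over this 5p arm, was 227-fold, 251-fold and 229-fold in saline and 189-fold, 426-fold and 465-fold in ADSC-Exos 1, 2 and 3. Since either gene pair can supply miR-29b-3p, this excess is not strictly that between the arms of the same hairpin.

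The remaining 5p arms were too low for the test. miR-29c-5p had 4.9, 6.3 and 6.1 CPM in the saline libraries against 6.6, 8.1 and 7.3 CPM in the treated ones, or 15 to 37 reads. Its groups did not overlap, as for 2.47% of the 243 miRNAs under the level filter in this direction. The exact permutation p was 0.1, the smallest possible. The nearest libraries, saline 2 and ADSC-Exos 1, had exact 95% Poisson intervals of 3.71 to 9.90 and 3.71 to 10.9 CPM, so that gap was not detectable at this depth. Fitted with no level filter, its log2 fold change came to 0.30 ± 0.38 (SE, adjusted p = 0.995 by limma).

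miR-29b-5p, a 5p arm whose row carries no copy number, had saline levels of 2.8, 4.2 and 3.1 CPM and treated levels of 7.1, 3.8 and 2.5 CPM, or 9 to 16 reads. Its highest library was ADSC-Exos 1, as for miR-29b-2-5p, and its lowest ADSC-Exos 3. With no level filter its log2 fold change was 0.25 ± 0.44 (SE, adjusted p = 0.995 by limma). miR-29a-5p was the scarcest member, with 1.8, 0.7 and 0.5 CPM in the saline libraries, 1.3, 3.5 and 1.8 CPM in the treated ones, and 2 to 13 reads. ADSC-Exos 2 was highest for it, as for the 3p arms. Its log2 fold change with no level filter was 0.67 ± 0.39 (SE, adjusted p = 0.995 by limma). The 3p arm exceeded this 5p arm 6351-fold to 28247-fold, a ratio that rests on those few reads. For miR-29c the excess was 1595-fold to 2555-fold, and for miR-29b-3p over miR-29b-5p it was 542-fold to 2327-fold. The last again uses a 3p row that either gene pair can supply.

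Across the 6 libraries the 3p arms moved much alike. ADSC-Exos 2 was the highest library and saline 1 the lowest for each of them. ADSC-Exos 2 lay above the mean of the 6 libraries by 0.90 (miR-29a-3p), 0.91 (miR-29b-3p) and 0.70 (miR-29c-3p) on the log2 scale. Saline 1 lay at -0.42, -0.78 and -0.56. They differed in saline 3 and ADSC-Exos 3, where miR-29c-3p stood at 0.32 and -0.07 and miR-29b-3p at -0.03 and 0.46.

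Likeness of profile was measured as the root mean square difference between centred log2(CPM + 1) values over the 6 libraries, among the 224 tested miRNAs. For miR-29a-3p the nearest profiles were miR-29b-3p at 0.201, miR-194-5p at 0.230 and miR-29c-3p at 0.254, where the median over all others was 0.632. For miR-29b-3p they were miR-29a-3p at 0.201, let-7b-3p at 0.267 and miR-452-5p at 0.291, with miR-29c-3p in place 5. For miR-29c-3p they were miR-452-5p at 0.160, miR-299-3p at 0.172 and miR-195-3p at 0.180, while miR-29a-3p and miR-29b-3p came in places 9 and 20. miR-29b-2-5p lay in place 33, at 0.484, for miR-29b-3p, the other arm of its hairpin, which the other miR-29b gene can also supply. It lay in place 24 for its gene neighbour miR-29c-3p, at 0.330. Values of these points share library and scaling, and low profiles such as let-7b-3p, with a mean of 10.4 CPM, carry more counting error.

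**Figure D5:**
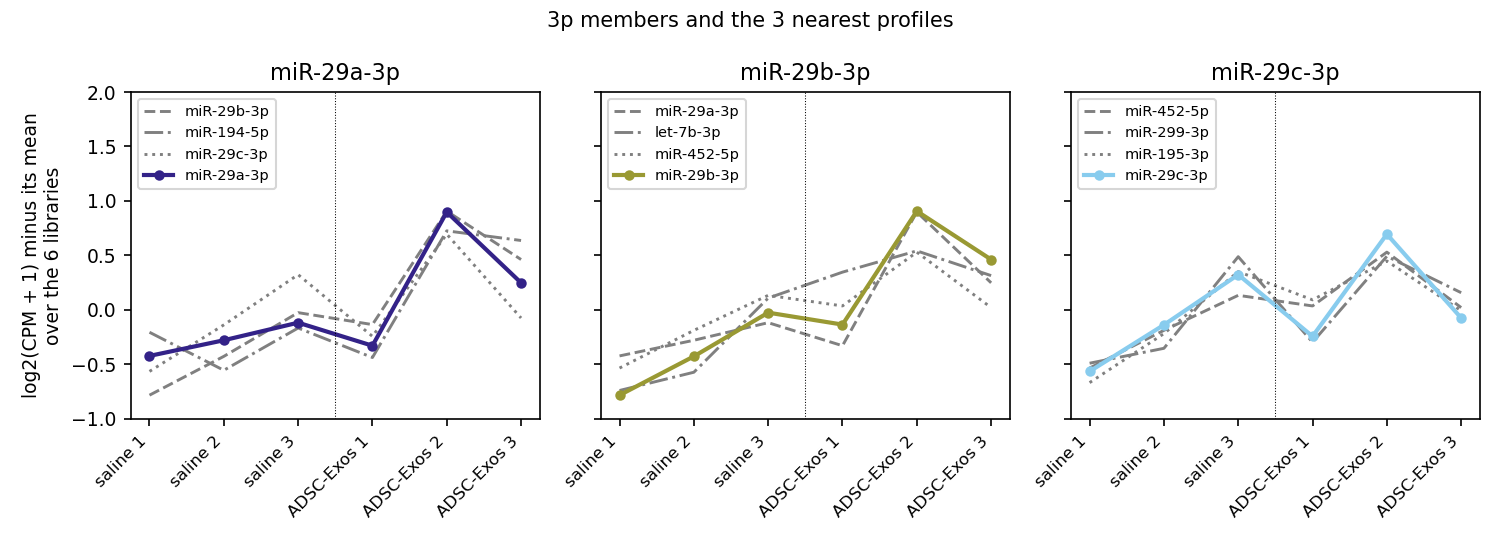
Log2(CPM + 1) minus its mean over the 6 libraries for each 3p arm (coloured) and its 3 nearest miRNAs (grey), with lines only as a guide between separate libraries. All 3 arms peak in ADSC-Exos 2, and miR-29c-3p alone has saline 3 above ADSC-Exos 3.

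Rows of other miRNAs reported to repress collagen or TGF-beta signalling had fold changes on both sides of 0. They were taken by name on either arm, so counts and medians mix both arms of a hairpin, whether or not that arm was reported. Of 35 tested, 18 had log2 fold changes above 0, against 39.3% of all 224 tested, and 17 below. The median was 0.01 against -0.08 over all tested, and 0 passed (0 at an unadjusted p under 0.05 too, in limma). The most abundant belonged to the let-7 family, which restrains proliferation, with log2 fold changes of -0.19 for let-7b-5p, -0.0080 for let-7a-5p, 0.05 for let-7f-5p and -0.07 for let-7i-5p. The tested miR-29 members, at 0.25 to 0.82, all exceeded that list's median, and this difference was not tested. Rows of the list also lay within that range, such as let-7b-3p at 0.80 and miR-141-3p at 0.51. For these rows every treated library was above every saline library, which held for no tested miR-29 member. Of 11 tested rows of miRNAs reported as pro-fibrotic, also taken on either arm, 7 were above 0 and 4 below, with a median of 0.22 and 0 passing. Without ADSC-Exos 3 this median was -0.10.

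miR-21-5p, a miRNA that fibrosis raises in many human and mouse tissues, was set in ratio to the members, since miR-29 and miR-21 are known for opposite relations to matrix build-up. Saline 1, 2 and 3 held 15926.3, 19146.1 and 22678.1 CPM of miR-21-5p itself. ADSC-Exos 1, 2 and 3 held 17257.0, 27893.6 and 46246.2 CPM, so ADSC-Exos 1 lay inside the saline range. Its log2 fold change was 0.56 ± 0.36 (SE, adjusted p = 0.996 by limma), close to the 0.55 of miR-29a-3p. A higher treated mean was thus not particular to the miR-29 family. miR-29a-3p to miR-21-5p was 0.718, 0.660 and 0.623 in saline and 0.707, 1.02 and 0.394 in ADSC-Exos. The treated libraries lay at, above and below the saline range, and the log2 difference was -0.02 (exact permutation p = 0.9). It was 0.04 without saline 1, 0.35 without ADSC-Exos 3, -0.34 without ADSC-Exos 2, -0.06 without saline 3 and -0.07 without ADSC-Exos 1. miR-29b-3p to miR-21-5p was 0.154, 0.164 and 0.183 in saline and 0.223, 0.284 and 0.126 in ADSC-Exos, a log2 difference of 0.26 (exact permutation p = 0.6, adjusted 0.72). It was 0.0068 without ADSC-Exos 2, 0.59 without ADSC-Exos 3 and 0.18 without ADSC-Exos 1. ADSC-Exos 3 had the lowest of both ratios and ADSC-Exos 2 the highest.

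miRNAs of cell types that an ear scar can hold also varied between these libraries. The 4 cartilage rows (both arms of miR-140 and miR-455) summed to 2110, 4189 and 4652 CPM in saline 1, 2 and 3 and to 1461, 7602 and 6046 CPM in ADSC-Exos 1, 2 and 3. This order is that of miR-29a-3p except that ADSC-Exos 1 and saline 1 change places. It is not particular to these rows. The first principal component of all 224 tested miRNAs also had ADSC-Exos 1 lowest, saline between, and ADSC-Exos 2 and 3 highest. All 4 cartilage rows were tested and had fold changes above 0, against 39.3% of all 224 tested, with a median of 0.25. Of these rows 0 passed, and none was at 0 throughout. The 5 erythroid rows (miR-451, miR-144 and miR-486) summed to 443 to 853 CPM in saline and to 109 to 472 CPM in ADSC-Exos. Of these, 4 of 4 tested were below 0, against 136 of all 224, with miR-451-5p at -1.71 ± 0.50 (SE). All 4 had an unadjusted p under 0.05 in limma, against 8 of all 224, and 0 passed the adjusted threshold. ADSC-Exos 2 and 3, the highest libraries for miR-29a-3p and miR-29b-3p, were the lowest for these. The part of either cell type in the miR-29 levels was not tested.

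The other marker lists ranked the libraries differently. Over all 224 miRNAs tested, 136 had fold changes below 0 and 88 above. Skeletal muscle rows (5, with miR-1-3p most abundant) summed to 1453 to 2134 CPM in saline and to 609 to 2375 CPM in ADSC-Exos, with 3 of 3 tested below 0. Within this sum miR-206-3p had 131.5, 145.8 and 4.6 CPM in saline 1, 2 and 3 and 1.8, 1.6 and 1.2 CPM in ADSC-Exos 1, 2 and 3. Its log2 fold change was -4.24 ± 1.10 (SE, adjusted p = 0.804 by limma). Smooth muscle rows (4, led by miR-143-3p) summed to 38229 to 70397 and 14505 to 67009 CPM, with 4 of 4 below 0. Keratinocyte and epithelial rows (6, led by miR-141-3p) summed to 8140.1 to 11335 and 7913 to 12297 CPM, with 4 of 6 above 0. Leukocyte rows (9, led by miR-146a-5p) summed to 7961 to 10091 and 6664 to 10115 CPM, with 5 of 7 below 0. Fibroblast rows (4, led by miR-199a-3p) summed to 117972 to 143972 and 113480.0 to 164725 CPM, with 2 of 4 above 0. Fibroblast, epithelial and leukocyte miRNAs were thus present in every library. ADSC-Exos 2, the highest library for the 3p arms, was the lowest for fibroblast and leukocyte rows and the highest for epithelial, skeletal muscle and cartilage rows, and the part of these in the miR-29 levels was not tested.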

How the data were processed

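The values are CPM to 1 decimal for 467 mature miRNAs in 6 libraries, as deposited by the authors, with library totals of 999998 to 1000007. Per the submitters' processing notes the tools included, with no role given, STAR 2.7.6a, DESeq2 1.30.1 and HTSeq 2.0.3, besides Trimmomatic 0.40 and FastQC 1.0.0. Genome build, miRNA annotation, strand and the treatment of shared reads are not given in the sources used. Read totals were sought as the numbers that make values whole reads within 0.05 CPM. This held for 2378 of 2382 values above 0 and for all 42 values of the members. Intervals from these reads cover counting error only.

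limma 3.58.1 (R 4.3.3) was fitted with trend to log2(CPM + 1) where the mean reached 10 CPM, with group as the only term and two-sided Benjamini-Hochberg adjustment over all 224. Fold changes on this scale understate those of low miRNAs. The fit was tested on simulated data with changes larger than those of the members. That test therefore does not show how well changes of their size are found. Exact permutation tests were two-sided. Alternatives were other scalings, pseudocounts of 0.1 and 10, other filters, limma-voom, a replicate block and leaving out each library. Named were all members, the 3 nearest profiles of each 3p arm, miR-21-5p, the 4 and 2 most abundant miRNAs of the collagen-repressing and pro-fibrotic lists and the top miRNA of each marker list. The row miR-206-3p, and let-7b-3p and miR-141-3p as rows of the collagen-repressing list, were added after seeing the data. The members and lists were chosen with earlier results of these data known. Mature sequences were not used here.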

Additional observations from a re-analysis of the deposited data

How the results depend on the processing

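No member passed in any of the alternatives run, where the adjusted p in limma ranged from 0.139 to 0.999 for miR-29b-3p and from 0.218 to 0.999 for miR-29a-3p. The fold changes of miR-29a-3p, miR-29b-3p and miR-29b-2-5p stayed above 0 throughout, with leave-out ranges of 0.23 to 0.85, 0.58 to 1.10 and 0.15 to 0.50. For miR-29c-3p quantile scaling gave -0.18, leaving out ADSC-Exos 2 gave -0.032, and the leave-outs ran from -0.032 to 0.48. The causes were not tested. miR-29b-2-5p has no value at a mean of at least 100 CPM. The log2 difference of miR-29a-3p to miR-21-5p turned to 0.04 without saline 1 and to 0.35 without ADSC-Exos 3, with a range of -0.34 to 0.35, and to 0.12 under quantile scaling, which was added for ratios after seeing the data. Over all miRNAs, the count past the adjusted threshold was 0 to 4 over the leave-outs, namely 1 without saline 3 and 4 without ADSC-Exos 1. The pro-fibrotic list median ran from -0.10 to 0.41 over the leave-outs, an alternative chosen after seeing the data. Deviations of same-numbered libraries correlated at -0.11, -0.02 and -0.13 over 224 miRNAs, against -0.24 to 0.24 for different numbers. Deviations from a group mean of 3 libraries are tied to each other, so these values cannot decide whether replicate numbers pair the samples. With the replicate block the count of calls was 0. The fold changes, such as 0.82 for miR-29b-3p, cannot change under the block in this balanced design. Fits of edgeR and DESeq2 were not run. limma-voom and the Poisson intervals rest on read totals inferred from rounded CPM.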
